A study of Mus musculus with 20 samples.

Results

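The pore subunits of the voltage-gated calcium (Ca) channels are the 10 genes Cacna1a to Cacna1i and Cacna1s. They were taken by Ensembl identifier from the 37620 genes listed for Trpv1 neurons of mouse dorsal root ganglia (DRG), and all 10 were listed. The libraries came from 5 male and 5 female donors aged 6 to 8 weeks, each with 1 library from lumbar DRG (L4 and L5) and 1 from sacral DRG (L6 and S1), which gave 20 libraries in 4 groups of 5. Every mouse was homozygous for Trpv1tm2Bbm, the Trpv1 PLAP-nLacZ reporter, in which nuclear beta-galactosidase is made from the Trpv1 locus, so no group lacked the reporter allele. Cells were dissociated, given a galactosidase substrate that turns fluorescent, and the brightest cells were sorted. The labels carry 2 animal numbers for each donor and do not say whether tissue of 2 mice was pooled. The question was how gene activity of these neurons differs between lumbar DRG and sacral DRG, which hold the pelvic visceral neurons among a larger number of somatic ones, and whether it differs between the sexes.

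Each Ca channel is built around 1 pore subunit, a protein of 4 linked repeats, and the pore gene sets the type of current. High-voltage-activated channels are the P/Q type (Cacna1a), the N type (Cacna1b), the L type (Cacna1c, Cacna1d, Cacna1f and Cacna1s) and the R type (Cacna1e), and low-voltage-activated channels are the T type (Cacna1g, Cacna1h and Cacna1i). In sensory neurons the N and P/Q types drive transmitter release at central terminals, the L type couples activity to gene expression, and the T type, mainly from Cacna1h, brings the membrane toward firing. High-voltage-activated pores assemble with alpha2-delta and beta subunits, and the gabapentinoid drugs bind alpha2-delta.

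In the ring of acidic residues that selects Ca in the pore, 1 from each repeat, the T type differs from all other types. The coding bases around the acidic residue of the fourth repeat are shown because they mark this division. Each window of 27 bases lies within a coding exon of the gene on the NCBIM37 (mm9) genome and is printed 5′ to 3′ on the coding strand, with the codon of the acidic residue in capitals.
Cacna1a (chr8:87135498-87135524, + strand, exon 35 of 47): agcgccacaggaGAAgcgtggcacaac
Cacna1b (chr2:24490733-24490759, - strand, exon 37 of 48): agtgccactgggGAGgcctggcatgag
Cacna1c (chr6:118564068-118564094, - strand, exon 35 of 47): tgtgccaccggaGAGgcctggcaggac
Cacna1d (chr14:30889130-30889156, - strand, exon 36 of 49): tgtgcaacagggGAAgcctggcaggag
Cacna1e (chr1:156273105-156273131, - strand, exon 37 of 47): agtgccacggggGAGgcttggcaggag
Cacna1f (chrX:7206542-7206568, + strand, exon 36 of 48): tgtgccactggtGAGgcctggcaagag
Cacna1g (chr11:94277729-94277755, - strand, exon 32 of 38): gtctccactggtGACaactggaatggt
Cacna1h (chr17:25514716-25514742, - strand, exon 31 of 35): gtgtccactgggGACaactggaatggg
Cacna1i (chr15:80218915-80218941, + strand, exon 31 of 37): gtctccacaggcGATaactggaatggg
Cacna1s (chr1:138003595-138003621, + strand, exon 33 of 46): tgtgccacagggGAAgcctggcaagag
The 7 high-voltage-activated genes had a glutamate codon at all 4 repeats, whereas the 3 T-type genes had glutamate at the first and second and aspartate at the third and at the fourth. Within these windows the T-type genes shared 23 to 24 of 27 bases with one another and 12 to 18 with the other genes. The values below are counts over whole genes and do not come from these windows.

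The 20 libraries held 44047007 to 66685273 reads on genes, worked back from the deposited log2 RPKM (a log2 read count set relative to gene length and sequencing depth). All libraries had been brought to the same median of 0.93 log2 RPKM. The sorted cells expressed Trpv1 at every level, from 3.14 to 4.71 log2 RPKM in lumbar and from 4.10 to 5.14 in sacral libraries, together with 8 of 8 markers of peptidergic nociceptors. Markers of other cells were present too, and they moved with spinal level: the mean of 10 glial markers was 0.96 higher on the log2 scale in lumbar libraries, in 10 of 10 donors, with 9 of 10 markers called. Summed glial marker RPKM ranged from 1510 to 3100 in lumbar and from 978 to 1600 in sacral libraries. The mean of 10 pan-neuronal markers was 0.61 higher in sacral libraries, in 10 of 10 donors and with 10 of 10 markers called. The peptidergic nociceptor mean was 0.64 higher in sacral libraries, with 6 of 8 markers called, Trpv1 itself by -0.96 (SE 0.15, adjusted p = 3.59e-05 in limma). The 2 not called were the peptide genes. Calca lay toward lumbar (0.16, adjusted p = 0.16 in limma), in 8 of 10 donors, and Tac1 measured -0.10 (adjusted p = 0.372). The nonpeptidergic and low-threshold C fibre means were 0.70 and 0.83 higher in sacral libraries, with 3 of 6 and 4 of 4 markers tested called. That of myelinated neurons was 0.28 higher in lumbar libraries, but its markers were divided and the median of those tested was 0.03. Of 9 tested, 3 were called as higher in lumbar, 1 as higher in sacral libraries (Cntnap2, -0.84) and 5 were not called. The means of endothelial and mural markers and of macrophage markers were 0.88 and 1.02 higher in lumbar libraries. The most abundant mural marker, Rgs5, was called the other way (-0.37, adjusted p = 0.0147), and summed endothelial and mural RPKM had medians of 169 in lumbar and 165 in sacral libraries, higher in lumbar in 4 of 10 donors. Skeletal muscle and photoreceptor markers summed to at most 1.66 and 2.46 RPKM. The part of these markers in the differences below was not tested beyond the fits named there, and in bulk libraries fewer cells of a type and less RNA per cell cannot be told apart.

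The N-type gene dominated the pore genes of Trpv1 neurons. Cacna1b (chr2:24459407-24618672) averaged 4.57 ± 0.64 log2 RPKM (SD, n = 20 libraries), followed by the L-type gene Cacna1c (chr6:118542314-119146249) at 2.75 ± 0.48. Cacna1e (R type, chr1:156239649-156573049) at 1.74 ± 0.94, Cacna1h (T type, chr17:25511230-25570728) at 1.67 ± 0.59 and Cacna1a (P/Q type, chr8:86912339-87164145) at 1.44 ± 0.36 lay close together. Below them came Cacna1i (T type, chr15:80117668-80228709) at -0.12 ± 0.61 and Cacna1d (L type, chr14:30853135-31304342) at -1.42 ± 0.49. All of these levels are per length of gene. Of 6 neighbouring pairs in this order, 5 differed by an exact two-sided sign-flip permutation test over the 10 donors (adjusted p = 0.00293 to 0.00937), and Cacna1e and Cacna1h did not differ beyond their spread (0.06 ± 0.31, SD, adjusted p = 0.57). The smallest unadjusted p that 10 donors allow is 0.00195. The order was set by the means of these same libraries, and only neighbours in it were tested. The test took the mean of both libraries of a donor, and the order of the middle genes was not the same at each level. In lumbar libraries Cacna1a (1.29) lay above Cacna1h (1.19) and Cacna1e (0.96), and in sacral libraries below them (1.60 against 2.16 and 2.51); these orders within levels were not tested. Cacna1b exceeded Cacna1c by 1.82 ± 0.11 on the log2 scale in 10 of 10 donors.

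The remaining genes were at or near the limit of detection. Cacna1g (T type, chr11:94269705-94335414) had reads in 18 of 20 libraries, from 3 to 142 in lumbar and from 0 to 66 in sacral libraries. Cacna1f (L type, chrX:7184209-7212322), the channel of photoreceptor terminals, had at most 14 reads and none in 6 libraries. Cacna1s (L type, chr1:137949327-138016399), the channel of skeletal muscle, had at most 18 reads and none in 9 libraries. A library without reads allows up to 3 reads, that is 0.00490 to 0.00827 RPKM for Cacna1f, 0.00508 to 0.00520 for Cacna1g and 0.00680 to 0.0126 for Cacna1s, and these limits cover counting error only.

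**Figure D1:**
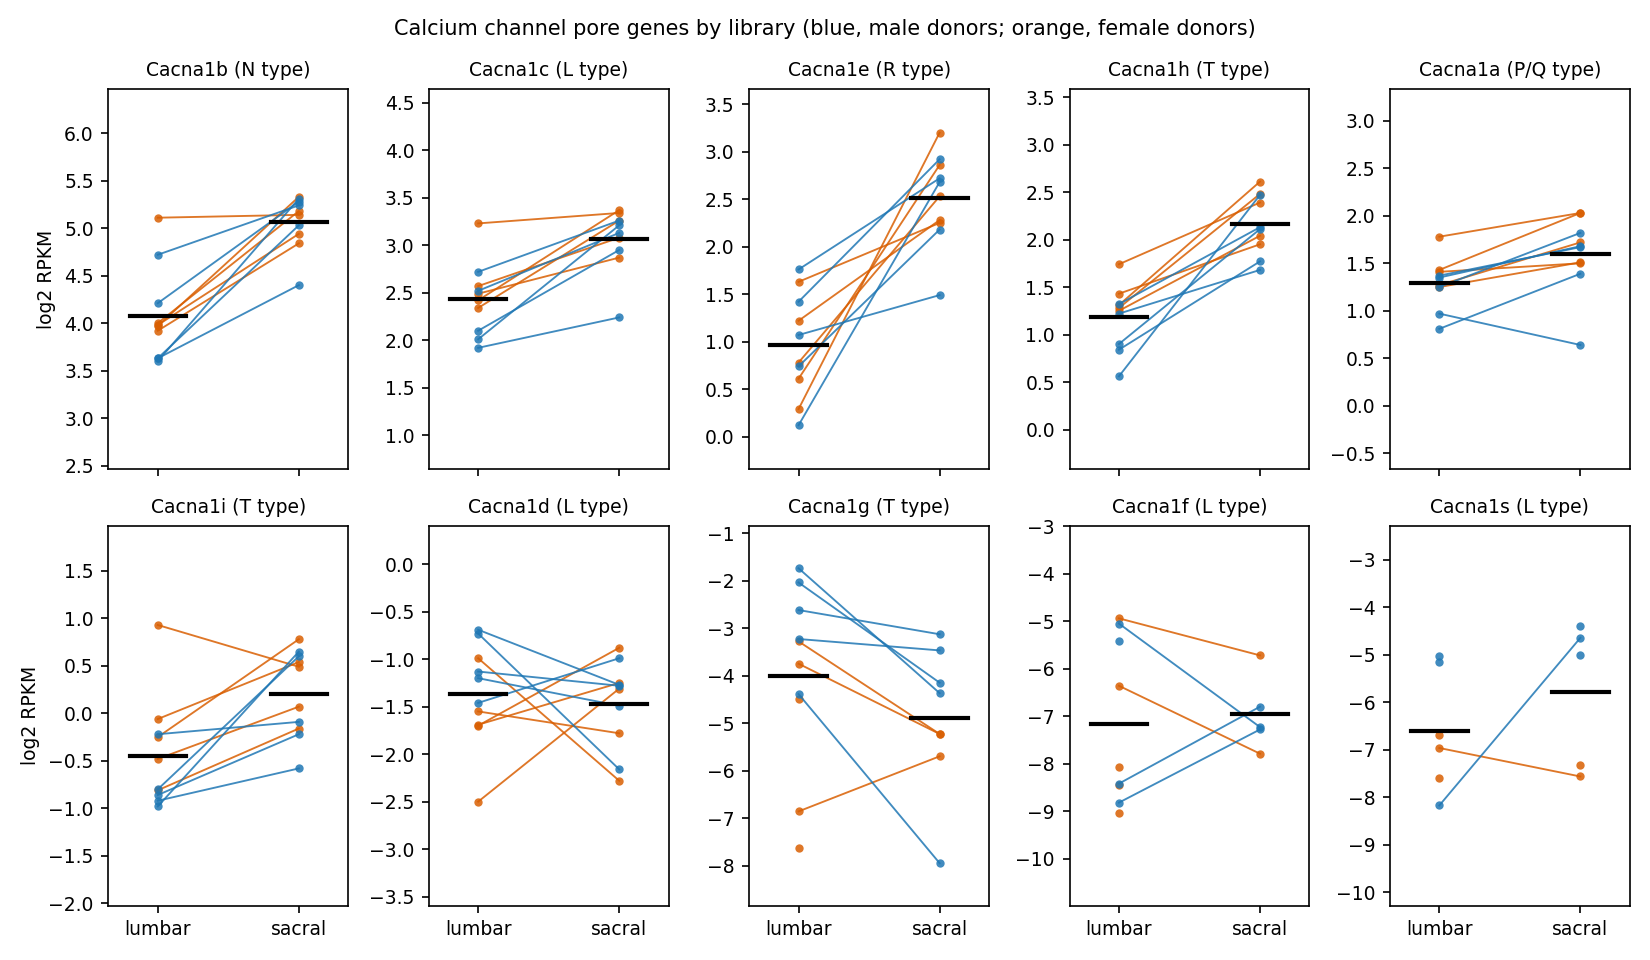
Log2 RPKM (vertical axes) of the 10 pore genes in lumbar and sacral libraries. Points are libraries, lines join the libraries of a donor where both have a value, black bars are means, and panels of the first 7 genes span 4 log2 units, the last 3 span 8. Cacna1b, Cacna1c, Cacna1e and Cacna1h were higher in the sacral library of all 10 donors.

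The pore genes Cacna1e, Cacna1b, Cacna1h, Cacna1i and Cacna1c measured higher in sacral libraries, by different amounts, and Cacna1a was called at the edge of the threshold. The L type rested on Cacna1c alone, and the T-type gene Cacna1g, below the filter, lay toward lumbar DRG. Relative to pan-neuronal markers only Cacna1e, Cacna1b and Cacna1h stayed called as higher in sacral libraries, and with a glial covariate none did (both below). In a limma fit over all genes with the donor as a random block, 6 of 10 pore genes passed the filter on low values, and all 6 had an adjusted p of at most 0.05 with higher levels in sacral libraries. This is read against a background in which 45.6% of the 16304 genes tested were called, 30.3% as higher in sacral and 15.3% as higher in lumbar libraries. In no pore gene tested were the lumbar and sacral libraries fully apart, a pattern higher in sacral libraries in 1.34% of the 15318 genes with values in all libraries. In 4 pore genes, Cacna1b, Cacna1c, Cacna1e and Cacna1h, every donor was higher in sacral DRG, as in 14.6% of those genes. The median lumbar minus sacral difference was -0.82 over the 6 genes and -0.11 over all genes tested. The all-gene figures moved with the scaling. The share of calls that were higher in sacral libraries was 66.5% as deposited, 55.7% with quantile normalization, 50.2% with TMM factors and 86.9% with scaling to total reads, where the all-gene median was -0.04, 0.01 and -0.43. Under each of these scalings all 6 differences kept their direction, and 5 or 6 remained called. Of all genes tested, 23.4% were called as higher in sacral libraries with quantile normalization and 21.5% with TMM factors. With total reads, where all 6 pore genes were called, the share was 57.9%.

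The R-type gene Cacna1e showed the widest difference of the 6. Its channel carries a toxin-resistant current in sensory neurons. Cacna1e measured 0.12, 0.93 and 1.76 log2 RPKM (lowest, median and highest) in lumbar and 1.49, 2.61 and 3.20 in sacral libraries. The groups overlapped through 1 sacral library, that of male donor 2 at 1.49, and the other 9 sacral libraries lay above every lumbar one. The lumbar minus sacral difference was -1.55 (SE 0.21, adjusted p = 1.07e-05 in limma), or 2.92-fold higher in sacral libraries. Within donors it ranged from -0.42 to -2.91.

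The N-type gene Cacna1b was 1.99-fold higher in sacral libraries (-0.99, SE 0.15, adjusted p = 3.64e-05 in limma). It measured 3.60, 3.98 and 5.11 log2 RPKM in lumbar and 4.40, 5.16 and 5.33 in sacral libraries. All donors were higher in sacral DRG, but in female donor 2 the libraries differed by only -0.02 (5.11 against 5.14), and that lumbar value stood above all other lumbar ones, the next being 4.72 in male donor 1. Cacna1b overlaps the pseudogene Gm13459 on the opposite strand, which had at most 62 reads in a library against at least 4531 for Cacna1b. Strand was not marked by the kit, so reads on bases shared by genes on opposite strands cannot be told apart by strand. The overlaps given here are of whole gene spans, introns included, and overlap of exons was not examined.

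Of the T-type genes, Cacna1h was 1.97-fold higher in sacral libraries (-0.98, SE 0.12, adjusted p = 4.65e-06 in limma). Its lowest, median and highest values were 0.56, 1.26 and 1.74 log2 RPKM in lumbar and 1.68, 2.12 and 2.61 in sacral libraries. The groups met only where female donor 2 lumbar (1.74) passed male donor 2 sacral (1.68). Cacna1h overlaps Tpsg1 on the opposite strand, a mast cell protease gene with at most 149 reads in a library.
Cacna1i was 1.57-fold higher in sacral libraries (-0.65, SE 0.20, adjusted p = 0.0121), in 9 of 10 donors. It measured -0.98, -0.64 and 0.93 log2 RPKM in lumbar and -0.58, 0.28 and 0.78 in sacral libraries. Its highest value of all was lumbar, in female donor 2 (0.93).

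Among the L-type genes, Cacna1c was 1.56-fold higher in sacral libraries (-0.64, SE 0.13, adjusted p = 0.000422 in limma), in 10 of 10 donors. It measured 1.92, 2.46 and 3.23 log2 RPKM in lumbar and 2.24, 3.17 and 3.37 in sacral libraries, and 4 sacral libraries lay above every lumbar one. Cacna1c is the L-type channel of heart and vessel muscle as well as of neurons, and it overlaps U6 (at most 3 reads) and Dcp1b (up to 814 reads in a library, against at least 1328 for Cacna1c) on the opposite strand. Cacna1d had 63 to 253 reads in lumbar and 94 to 298 in sacral libraries and fell below the filter. Its values ran from -2.50 to -0.69 log2 RPKM in lumbar and from -2.28 to -0.88 in sacral libraries, higher in lumbar in 6 of 10 donors, and it overlaps Chdh and Dcp1a, which had up to 743 and 1117 reads. With no filter on low values the difference was 0.11 (SE 0.24, adjusted p = 0.766), so none was detectable at this depth.

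The P/Q-type gene Cacna1a changed least of the 6 genes tested and stood at the edge of the threshold. It was 1.24-fold higher in sacral libraries (-0.31, SE 0.13, 95% interval -0.57 to -0.05, adjusted p = 0.0499 in limma), in 9 of 10 donors. The lowest, median and highest values were 0.81, 1.31 and 1.78 log2 RPKM in lumbar and 0.64, 1.67 and 2.03 in sacral libraries, so the lowest and the highest of all 20 values were both sacral. The lowest was male donor 2, the donor whose difference ran the other way (0.33). Leaving out that donor gave -0.39 with an adjusted p of 0.00713, while leaving out any other donor raised it to between 0.0527 and 0.114. TMM factors gave -0.19 (adjusted p = 0.181), and without the donor block the adjusted p was 0.0872. Cacna1a overlaps Gm16183 on the opposite strand, which had at most 203 reads in a library against at least 894 for Cacna1a.

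Leaving out each donor in turn kept the calls of Cacna1b, Cacna1c, Cacna1e, Cacna1h and Cacna1i in 10 of 10 fits. In male donors alone 5 of the 6 genes were called as higher in sacral libraries (18.0% of all genes) and in female donors alone 4 (15.2% of all genes), Cacna1a being lost in both and Cacna1i in females (-0.48, SE 0.29, adjusted p = 0.249 in limma).

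The pore genes were next set against the neuronal content of each library. Relative to the mean of the 10 pan-neuronal markers, Cacna1e was still 0.94 higher on the log2 scale in sacral libraries (SE 0.20, adjusted p = 0.000369 in limma), in 9 of 10 donors. Cacna1b was 0.39 higher (SE 0.11, adjusted p = 0.00531) and Cacna1h 0.37 higher (SE 0.12, adjusted p = 0.00747), each in 8 of 10 donors. Cacna1c and Cacna1i differed by -0.03 (SE 0.11, adjusted p = 0.776) and -0.05 (SE 0.18, adjusted p = 0.818). Cacna1a reversed and was 0.30 higher in lumbar libraries (SE 0.11, adjusted p = 0.0195), in 9 of 10 donors. The same centring moved the median of all genes to 0.50, and 71.6% of all genes were then called, 3.15% of them as higher in sacral libraries. The 10 markers differed among themselves: after centring, 2 were called as higher in sacral and 3 as higher in lumbar libraries. As deposited they ran from -0.22 (Snap25) to -1.24 (Thy1), a range that held every pore gene tested but Cacna1e (-1.55).

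With the glial marker mean of each library as a covariate none of the 6 pore genes was called, and the calls over all genes fell from 7436 to 184 (1.13% of genes). Cacna1e then measured -1.13 (SE 0.36, adjusted p = 0.159 in limma), Cacna1h -0.57 (SE 0.19, adjusted p = 0.183) and Cacna1b -0.40 (SE 0.23, adjusted p = 0.521). Cacna1c measured -0.20 (SE 0.21, adjusted p = 0.765), and Cacna1a (0.21, SE 0.19) and Cacna1i (0.06, SE 0.32) turned sign. The glial mean was higher in the lumbar library of every donor, so spinal level and glial content cannot be told apart within donors.

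**Figure D2:**
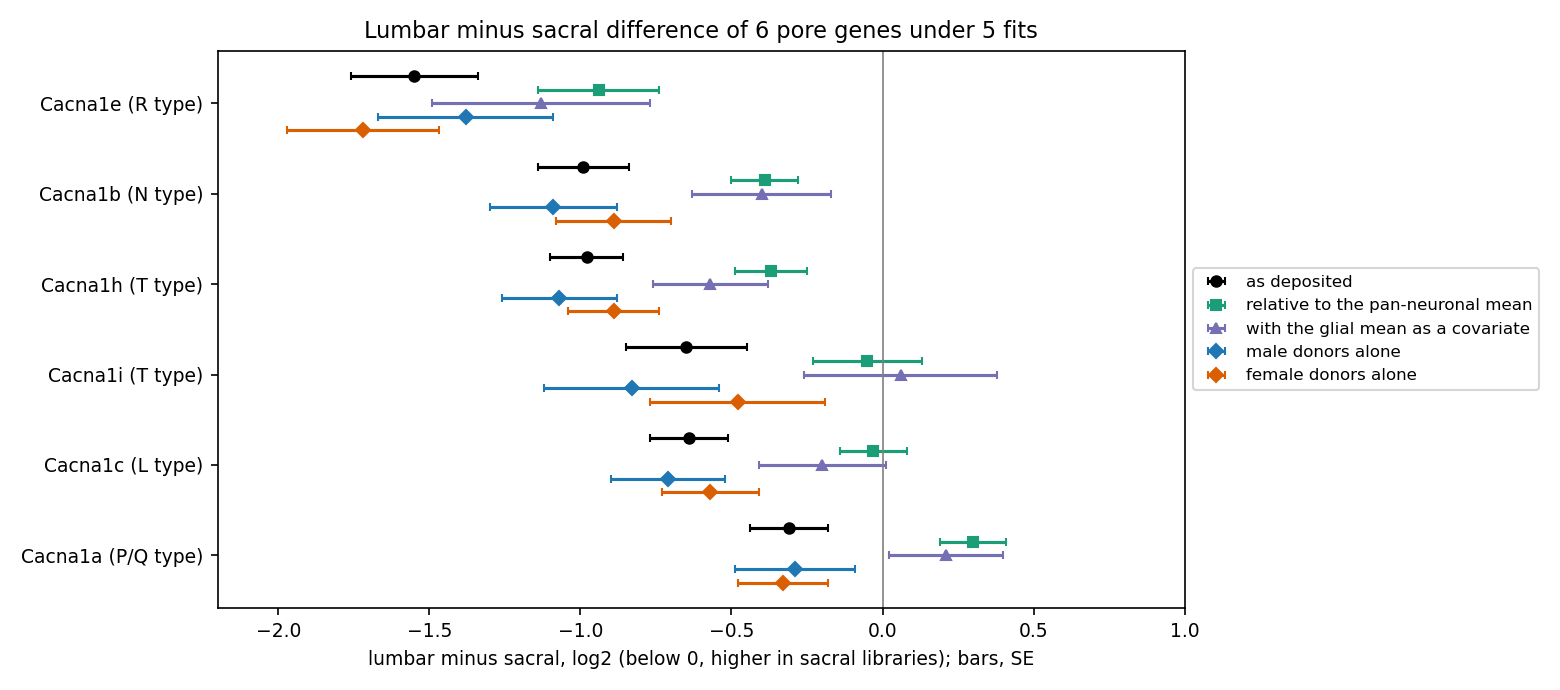
Lumbar minus sacral difference (horizontal axis, log2; points, estimates; bars, SE) of the 6 pore genes tested, as deposited, relative to the pan-neuronal mean, with the glial mean as a covariate, and in male and female donors alone. Cacna1e lies below 0 in every fit, from -0.94 to -1.72, and Cacna1a lies above 0 relative to the pan-neuronal mean (0.30) and with the glial covariate (0.21).

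A difference between genes of 1 library does not depend on any single factor by which that library was scaled, so the lumbar minus sacral changes were also compared between genes within donors. It does depend on scalings that change the shape of the distribution: with quantile normalization Cacna1c measured -0.51 and Cacna1i -0.77, where as deposited they measured -0.64 and -0.65. Of the 21 pairs of the 7 genes with values in every library, 16 differed by the exact two-sided sign-flip permutation test over donors at an adjusted p of at most 0.05. The change of Cacna1e exceeded that of each of the other 6 genes, by 1.24 ± 0.66 (SD, n = 10 donors) against Cacna1a (exact permutation, adjusted p = 0.0103), by 0.91 ± 0.59 against Cacna1c (0.0103) and by 0.56 ± 0.63 against Cacna1b (0.0352). Cacna1b and Cacna1h did not differ in their change (-0.01 ± 0.34, adjusted p = 0.928, each further to sacral in 5 of 10 donors), nor did Cacna1c and Cacna1i (0.01 ± 0.45, adjusted p = 0.928).

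The genes of the N and P/Q types, both presynaptic, changed unequally. Cacna1b changed by 0.68 ± 0.41 more than Cacna1a toward sacral DRG, in 9 of 10 donors (exact permutation, adjusted p = 0.0154). Within the T type, Cacna1h changed by 0.33 ± 0.39 more than Cacna1i (adjusted p = 0.0342), in 8 of 10 donors, and within the L type Cacna1c by 0.75 ± 0.87 more than Cacna1d (adjusted p = 0.0355), in 8 of 10. Leaving out each donor in turn gave 10 to 15 pairs, with 9 donors and a smallest unadjusted p of 0.00391. Called every time were 10 pairs, among them Cacna1a against Cacna1b, Cacna1c, Cacna1e and Cacna1h. The other 6 called pairs were less stable. Cacna1e kept its call against Cacna1b in 3 and against Cacna1h in 4 of the 10 repeats, Cacna1h against Cacna1i in 4, Cacna1c against Cacna1d in 4, Cacna1b against Cacna1d in 5 and Cacna1b against Cacna1i in 2.

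**Figure D3:**
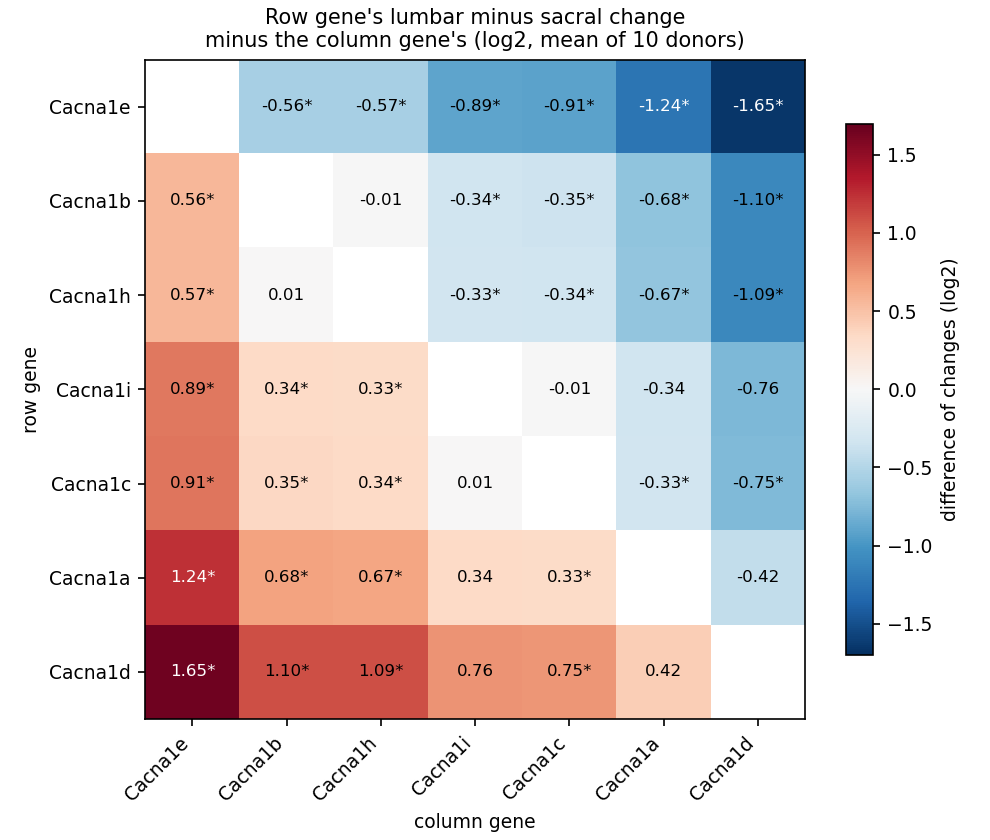
The lumbar minus sacral change of the row gene minus that of the column gene (log2, mean of 10 donors) for 7 pore genes; an asterisk marks an adjusted p of at most 0.05 in the exact permutation test. The row of Cacna1e is below 0 against all other genes, from -0.56 to -1.65, and Cacna1b with Cacna1h and Cacna1c with Cacna1i are near 0.

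The makeup of the pore transcripts at each level is given as shares, with no test. The summed RPKM of the 10 genes was 31.7 ± 10.3 (SD, n = 10) in lumbar and 58.0 ± 10.7 in sacral libraries and was higher in the sacral library of 10 of 10 donors. The N type made up 55.5 ± 3.84% of it in lumbar and 59.0 ± 2.28% in sacral libraries, higher in sacral in 7 of 10 donors. The R type went from 6.61 ± 1.84% to 10.2 ± 1.87%, higher in sacral in 9 of 10 donors, the exception being male donor 2 (8.78% and 8.12%). The P/Q type went from 8.14 ± 1.4% to 5.35 ± 0.617% and the L type from 19.2 ± 1.5% to 15.5 ± 1.10%, each higher in lumbar in 9 of 10 donors. In both the exception was female donor 2. The T type held 10.5 ± 1.93% and 10.1 ± 1.14%. Cacna1g, at 0.387 ± 0.379% of the sum in lumbar and 0.0790 ± 0.0995% in sacral libraries, took the larger share in the lumbar library of 10 of 10 donors. Its own level was higher in lumbar in 7 of the 8 donors with both values, the exception being female donor 5 (-6.86 log2 RPKM from 5 reads in lumbar, -5.70 from 13 reads in sacral), and the sum it was divided by was larger in sacral libraries. With no filter on low values its difference was 1.04 (SE 0.65, adjusted p = 0.224 in limma), and counts as low as 2 reads entered that fit.

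In lumbar libraries the mean levels ran Cacna1b, Cacna1c, Cacna1a, Cacna1h, Cacna1e, Cacna1i, Cacna1d, and in sacral libraries Cacna1b, Cacna1c, Cacna1e, Cacna1h, Cacna1a, Cacna1i, Cacna1d. Cacna1a and Cacna1e thus exchanged the third and the fifth place.

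**Figure D4:**
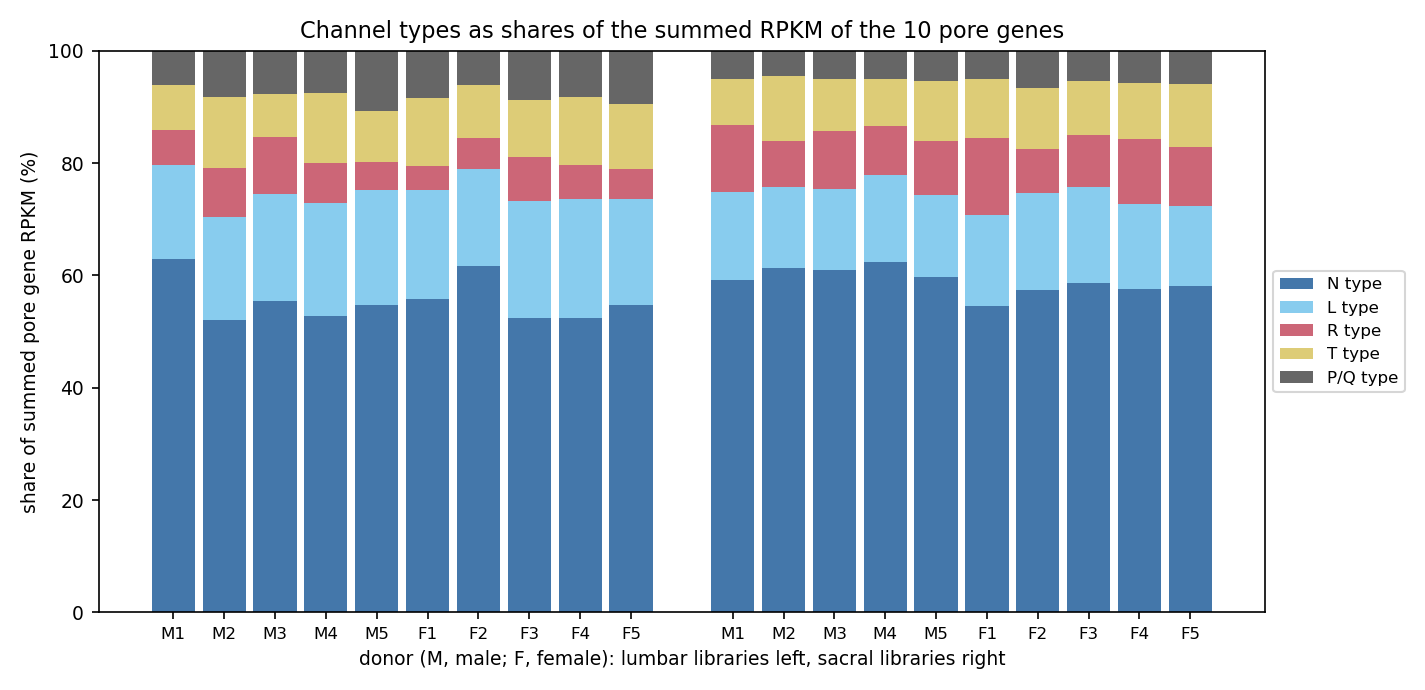
Share of the summed RPKM of the 10 pore genes (vertical axis, %) held by each channel type in the lumbar (left) and sacral (right) library of each donor. The N type holds 52.0 to 62.8% of every library, the R type is wider on the sacral side except in M2, and the P/Q and L types are narrower there except in F2.

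Sex was compared within each level. No pore gene was called between female and male donors, against 7 of 16386 genes in lumbar (0.0427%) and 6 of 16321 in sacral libraries (0.0368%). In lumbar libraries Cacna1h had the lowest p of the 6, with female minus male 0.43 (SE 0.19, unadjusted p = 0.0311, adjusted p = 0.396 in limma). It measured 1.4 ± 0.20 in female and 0.97 ± 0.31 log2 RPKM in male lumbar libraries (SD, n = 5 each). The other lumbar differences ran from -0.11 (Cacna1e) to 0.62 (Cacna1i) and the sacral ones from 0.03 (Cacna1b) to 0.32 (Cacna1a). The interaction of sex and level was called for no gene (0.00% of 16304, lowest adjusted p = 0.246 in limma, 668 genes at an unadjusted p under 0.05). For the pore genes it ranged from -0.34 (Cacna1e, 95% interval -1.20 to 0.52) to 0.35 (Cacna1i, -0.49 to 1.19).

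The auxiliary subunits were mostly higher in sacral libraries too, by less. Of 16 genes listed, 12 were tested, 9 were called as higher in sacral and 1 as higher in lumbar libraries (30.3% and 15.3% of all genes), with a median of -0.52 against -0.82 for the pore genes, which was not tested. All 3 alpha2-delta genes tested were called: Cacna2d1 (-0.83, SE 0.14, adjusted p = 8.63e-05), Cacna2d2 (-0.72, SE 0.12, adjusted p = 5.95e-05) and Cacna2d3 (-0.44, SE 0.16, adjusted p = 0.0288). Cacna2d1 and Cacna2d2 encode the gabapentinoid binding sites, and Cacna2d1 was the most abundant of the 4, at 4.75 ± 0.47 in lumbar and 5.58 ± 0.23 log2 RPKM in sacral libraries. Of the beta genes, whose products bring the pore to the membrane, Cacnb4, Cacnb1 and Cacnb3 were called (-0.53, -0.52 and -0.50) and Cacnb2 was not (-0.10, adjusted p = 0.631). Among the gamma genes, most of which encode partners of AMPA receptors, Cacng5 (-0.80, SE 0.08, adjusted p = 5.82e-07), Cacng3 (-0.91) and Cacng7 (-0.37) were called as higher in sacral and Cacng4 (0.59, SE 0.19, adjusted p = 0.0153) as higher in lumbar libraries.
Relative to the pan-neuronal mean 1 auxiliary gene was called as higher in sacral libraries, Cacna2d1 (-0.23, adjusted p = 0.0329 in limma). Called as higher in lumbar libraries were 3, Cacnb2 (0.51), Cacng4 (1.19) and Cacng7 (0.24). Of all genes, 2.25% were then called as higher in sacral and 11299 of 16304 as higher in lumbar libraries. With the glial covariate only Cacng5 was called (-0.75, adjusted p = 0.0124), against 1.13% of all genes.

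**Figure D5:**
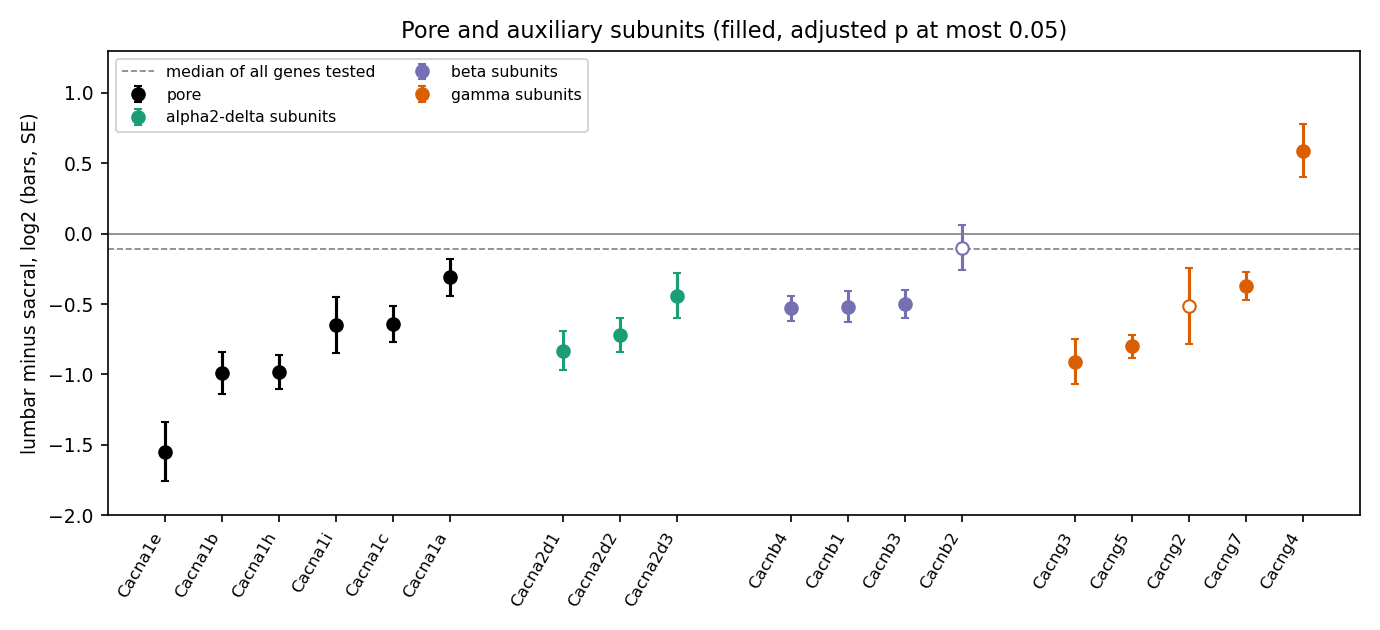
Lumbar minus sacral difference (vertical axis, log2; bars, SE) of the pore and auxiliary subunit genes tested, with filled points at an adjusted p of at most 0.05. The dashed line is the median of all genes (-0.11); Cacng4 (0.59) is the only point above 0.

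Other genes of the Ca pathway were counted by lists. Of 16 channel regulators, 12 were tested and 8 called, all as higher in sacral libraries (30.3% of all genes; median -0.43). With the glial covariate only Gem was called (-0.86, adjusted p = 0.0492), named after its value was seen. The lowest p-values as deposited were those of Usp5, a deubiquitinase of T-type channels (-0.76, SE 0.10, adjusted p = 1.45e-05), Nalcn, a sodium leak channel related to the pore genes (-0.87, SE 0.13, adjusted p = 2.11e-05), Stac, an adaptor of L-type channels (-0.59, SE 0.09, adjusted p = 5.15e-05), and Caly (-0.88, SE 0.16, adjusted p = 0.000184). Relative to the pan-neuronal mean 1 regulator was called as higher in sacral libraries, Nalcn (-0.27; 2.25% of all genes). Called as higher in lumbar libraries were 5 (11299 of 16304 genes), Cdk5, Dpysl2, Gem, Unc80 and Wwp1 (0.15 to 0.66). Of these, Dpysl2 had been called the other way as deposited (-0.45). Of 21 genes of calcium stores and extrusion, 19 were tested, 13 called as higher in sacral and 3 as higher in lumbar libraries (30.3% and 15.3% of all genes; median -0.53). The plasma membrane pump genes Atp2b4 (-1.23, SE 0.15, adjusted p = 4.59e-06) and Atp2b3 (-0.91, SE 0.13, adjusted p = 1.41e-05) and the store pump gene Atp2a2 (-0.72, SE 0.10, adjusted p = 1.32e-05) were higher in sacral libraries. The 3 genes of inositol trisphosphate receptors went the other way, Itpr3 by 1.08 (SE 0.14, adjusted p = 6.14e-06), Itpr2 by 1.46 and Itpr1 by 0.50, and with the glial covariate none of the 19 genes of this list was called in either direction, the pumps included (Atp2b4 -0.71, adjusted p = 0.197; Atp2b3 -0.38, adjusted p = 0.436; Atp2a2 -0.33, adjusted p = 0.361). Relative to the pan-neuronal mean 4 genes of this list were called as higher in sacral libraries (Atp2a3, Atp2b3, Atp2b4 and Ryr3), against 2.25% of all genes. Called as higher in lumbar libraries were 5 (Itpr1, Itpr2, Itpr3, Orai3 and Stim2), against 11299 of 16304 genes.

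The genes most like each pore gene were found by the root mean square difference of log2 profiles, each centred on its mean, over 20 libraries and 15259 other genes. The values are a description, and the libraries share donors, depth and cell content. Closest to Cacna1b were Disp2 (0.110) and Slc7a14 (0.119), where the median over all genes was 0.647. Closest to Cacna1c were Plekha6 (0.107) and Ank2 (0.108), and closest to Cacna1a Tmem184b (0.136) and Zfhx3 (0.150). Cacna1h was nearest to Snx25 (0.173) and Gprasp1 (0.189). Cacna1i was nearest to F630040L22Rik (0.281) and Trim67 (0.294). Cacna1e was nearest to the calcium pump gene Atp2b4 (0.315) and the GABA receptor subunit gene Gabrg3 (0.353). This measure grows with a gene's own spread, which was 0.917 for Cacna1e, 0.626 for Cacna1b, 0.596 for Cacna1i, 0.579 for Cacna1h, 0.466 for Cacna1c and 0.355 for Cacna1a, so the distances are not compared between pore genes.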

How the data were processed

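RNA of sorted Trpv1 DRG cells was amplified (Ovation RNA-Seq System v2) and sequenced on a HiSeq2500. The authors aligned reads to mm9 with Subread (1.20.6 and 1.18 in the submitters' processing notes), counted uniquely mapped reads on Ensembl genes with featureCounts, applied TMM scaling in edgeR 3.12.1 and voom in limma 3.26.9, and deposited log2 RPKM, 1 column for each library. The step that makes the medians equal is not given in the sources used here. Strand in counting is not stated.

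Donors were paired by the animal numbers in the labels. Deviations of same-donor libraries from their group means correlated at 0.18 on average (0.04 to 0.30). The mean between different donors of a sex was -0.04. Deviations from a group mean sum to 0, which ties that value to the same-donor one, so it is not a separate baseline. Kept were 16422 genes with a mean log2 RPKM above -1 and at least 3 values in at least 1 group. Deposited log2 values were fitted with limma 3.58.1 (R 4.3.3; trend, 4 group means, donor as a random block with correlation 0.17, Benjamini-Hochberg, threshold 0.05), which left 16304 genes with a test of level. Empty cells were treated as missing, except in shares and sums, where they counted as 0. Numbers of reads were worked back from the value steps (98.1% of 430293 values within 0.01 of a whole read). Gene models, symbols and positions came from the NCBIM37 annotation, for 37205 of 37620 identifiers. Order and pairs of genes were tested by exact two-sided sign-flip permutation over donors (scipy 1.17.1), adjusted over 6 and 21 pairs.

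All 10 pore genes were named. Of the other lists, all members were counted and up to 4 with the lowest p named, plus the 2 closest profiles for each pore gene tested. Further genes were named after their values were seen. These were Itpr1, Itpr2, some cell type markers, and list genes called with the pan-neuronal centring or the glial covariate. The members and lists were chosen with earlier results of these data known. P-values measure the spread between these libraries, whose labels give animal numbers and a serial number for each library. The serial numbers ran in an unbroken block for each group of sex and level. What they record is not stated. The fit was tested on simulated data with changes planted in a small part of the genes, equally in both directions. That setting held no shift of cell content, so it cannot show how the fit behaves under one.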

Additional observations from a re-analysis of the deposited data

Results flagged for a closer look

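Among the pore genes, 33 groups of libraries were examined for a library far from the other members of its group, a check that marks about 1 in 20 groups by chance, and 4 were marked. In female lumbar libraries Cacna1b measured 5.11 log2 RPKM in donor 2, where the next was 4.0, and Cacna1c measured 3.23 in the same library, where the next was 2.57. That library also had the lowest glial marker mean of the 10 lumbar libraries (5.30 log2 RPKM, highest 6.46) and the second highest pan-neuronal mean (6.38, highest 6.39). The part of these values in the levels was not tested. Without this donor the lumbar minus sacral difference was -1.10 for Cacna1b and -0.70 for Cacna1c, and both stayed called.

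In male lumbar libraries Cacna1i measured -0.22 in donor 4, where the next was -0.80. In male sacral libraries Cacna1g measured -7.95 in donor 5, a value of 2 reads, where the next was -4.37.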

How the results depend on the processing

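The main limits are the glial and neuronal content of the libraries, the scaling, and the few reads of Cacna1d, Cacna1f, Cacna1g and Cacna1s. The count of genes called between levels was 7436 as reported, 11666 centred on the pan-neuronal markers, 184 with the glial covariate, 4600 in male donors alone and 3640 in female donors alone. Of 6 pore genes called, 3 remained with the pan-neuronal centring and 0 with the glial covariate. Reversed were Cacna1a (0.30 and 0.21 in these fits) and Cacna1i (0.06 with the glial covariate); the cause was not tested. Without each donor in turn the called pore genes numbered 5 to 6. With the donor as a fixed effect (the replicate block) 7171 genes and 6 pore genes were called, and without the block 6577 genes and 5 pore genes, Cacna1a being lost (adjusted p = 0.0872).

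Sex comparisons in lumbar libraries called 7 genes, 3 with no filter, 12 with a pseudocount of 1 RPKM, 13 with quantile normalization, 12 with TMM factors and 4 with no trend, and 3 to 8 without 1 donor. Those in sacral libraries called 6, 27 with a pseudocount of 1 RPKM, 13 with one of 0.1, 37 and 24 with voom on reads (TMM and total reads) and 27 with array quality weights, and 3 to 9 without 1 donor. No pore gene was called for sex or interaction in any of these. The gene pairs that differed in their change numbered 16 and, without 1 donor, 10 to 15. The shares of the types moved by less than the spread between donors without any donor.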
